A study of Homo sapiens with 4 samples.

Results

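The genes described here build and serve the nuclear envelope: 29 nuclear pore genes, 11 genes of the nuclear lamina and inner nuclear membrane, and 8 genes of importins and exportin. They were chosen by name as a family with earlier results of these data known, and each was read from the transcript cluster that the platform's annotation pairs with that gene's symbol alone. Where a gene had several such clusters, the cluster was selected on the highest mean over the 4 arrays, which concerned NUP107. The earlier results may have shaped the choice of genes, so the counts below are descriptions. All 48 listed genes were found among 22411 genes with a cluster of their own, and all 48 passed the level filter, a mean over the 4 arrays above the 30th percentile of genes (4.29 log2 units), which left 15679 genes tested.

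The samples were HCT116 cells, an established human colon cancer line with an activating mutation in its own beta-catenin gene. The 2 samples of the CTNNB1 siRNA group received an siRNA against CTNNB1, the beta-catenin gene, and the 2 samples of the control siRNA group received the siRNA that the labels write as si(-). In both groups the siRNA was given at 50 nM for 48 h with a lipid transfection reagent, and total RNA was hybridised to 1 Affymetrix whole-transcript array per sample. The labels call the samples of a group biological replicates without saying whether they were separate cultures, and they do not state how many siRNA sequences were used. CTNNB1 itself stood at 6.50 and 6.65 log2 units on the CTNNB1 siRNA arrays, against 10.06 and 10.20 on the control arrays, a log2 fold change of -3.56 (limma's moderated standard error, SE, 0.10), and so both labels held for the targeted gene.

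Levels are the authors' log2 expression values, and changes are log2 fold changes, CTNNB1 siRNA relative to control siRNA, from limma, a linear model with a spread pooled across genes. A gene is said to have risen or fallen where its p-value, with Benjamini-Hochberg adjustment across the 15679 tested genes, lay under 0.05. By that rule 16.1% of all tested genes fell and 14.2% rose, and their median log2 fold change was -0.02. With 2 arrays against 2, the p-values rest on the pooled spread, and an array level says how bright a gene's own probes were, so levels are set side by side only within a gene. Of the markers listed for colon epithelium, EPCAM, KRT8, KRT18 and KRT19 lay between 10.50 and 13.71 log2 units on the 4 arrays. CDX1, CDX2 and VIL1, from the same list, lay below the level filter. Of the 5 epithelial markers tested, 4 rose: CDH1, which encodes the adhesion protein E-cadherin, was at 9.06 and 9.48 with CTNNB1 siRNA, against 6.80 and 7.20 in controls (2.27, SE 0.19), KRT8 rose by 0.89, KRT18 by 0.50 and EPCAM by 0.31, and KRT19 had -0.05. Their part in the changes below was not tested. Of 10 markers of blood, endothelial, fibroblast and muscle cells, 8 had a cluster, and their levels lay between 2.76 and 5.65; among them DES, which encodes the muscle filament protein desmin, rose by 0.64 (SE 0.08).

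The nuclear pore is a ring-shaped channel through the nuclear envelope, made of many copies of the nucleoporins. A scaffold of Y-shaped complexes and an inner ring holds a central channel of nucleoporins rich in phenylalanine-glycine repeats, with filaments on the cytoplasmic side and a basket on the nuclear side. Cargo proteins cross it bound to importins or exportins, whose loading and release is set by the small GTPase Ran. Beneath the inner nuclear membrane lies the lamina, a mesh of A-type and B-type lamins anchored by membrane proteins, and in dividing mammalian cells the pore and the lamina are taken apart and rebuilt at each mitosis.

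Taken by class, pore genes mostly fell, lamina genes moved unevenly, and importin alpha genes moved in opposite directions. Of 29 pore genes, 20 fell, 1 rose and 8 did not pass, at a median log2 fold change of -0.49. Of 11 lamina genes, 5 fell, 1 rose and 5 did not pass, and their median was -0.08, or -0.14 without CTNNB1 siRNA replicate 1. Of the 8 transport receptor genes, 2 fell, 5 rose and 1 did not pass, and the median was 0.35. Over all 48 genes, 27 fell, which is 56.2%, and 7 rose, which is 14.6%. Of all tested genes 16.1% fell and 14.2% rose, so the share of rises was near that of all genes. Few changes reached 2-fold: 17 of the 27 falls reached 1.5-fold and 4 reached 2-fold, and none of the 7 rises reached 1.5-fold. Among all tested genes, 1287 of the 2531 falls reached 1.5-fold and 443 reached 2-fold, and 1168 of the 2225 rises reached 1.5-fold.

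**Figure D1:**
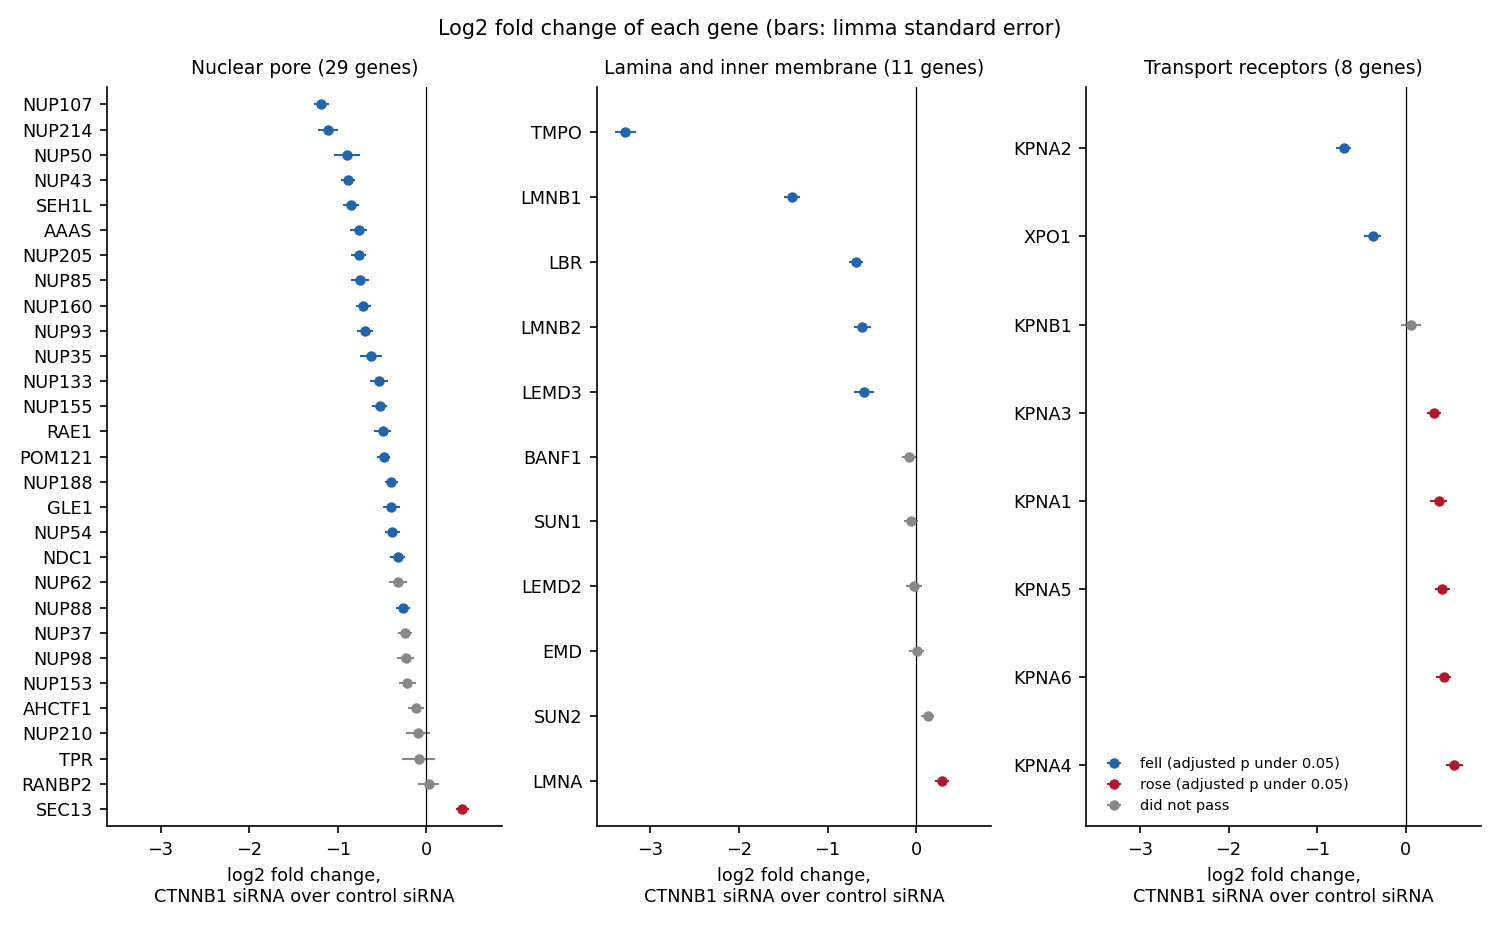
Log2 fold change, CTNNB1 siRNA relative to control siRNA (horizontal axis), for each gene, with limma's standard error as bars, in panels for the 29 pore, 11 lamina and 8 transport receptor genes. Blue points fell, red points rose and grey points did not pass; pore genes lie between -1.19 and 0.41, and TMPO stands far to the left at -3.28.

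In 32 of the 48 genes both CTNNB1 siRNA arrays lay below both control arrays, and in 8 both lay above. Over all tested genes these shares were 34.2% and 28.8%. They count called and uncalled genes alike. Where a gene was called, a lack of overlap comes from the same array values as the call and is no separate support, here and below. No member kept an adjusted p under 0.05 in limma in fits on 3 of the 4 arrays, as was so for every tested gene, with between 4732 and 4930 genes then at an unadjusted p under 0.05. The log2 fold changes of all 27 genes that fell and all 7 that rose kept their sign whichever array was left out. The same was so for all 2531 tested genes that fell and all 2225 that rose, so it does not set the members apart.

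**Figure D2:**
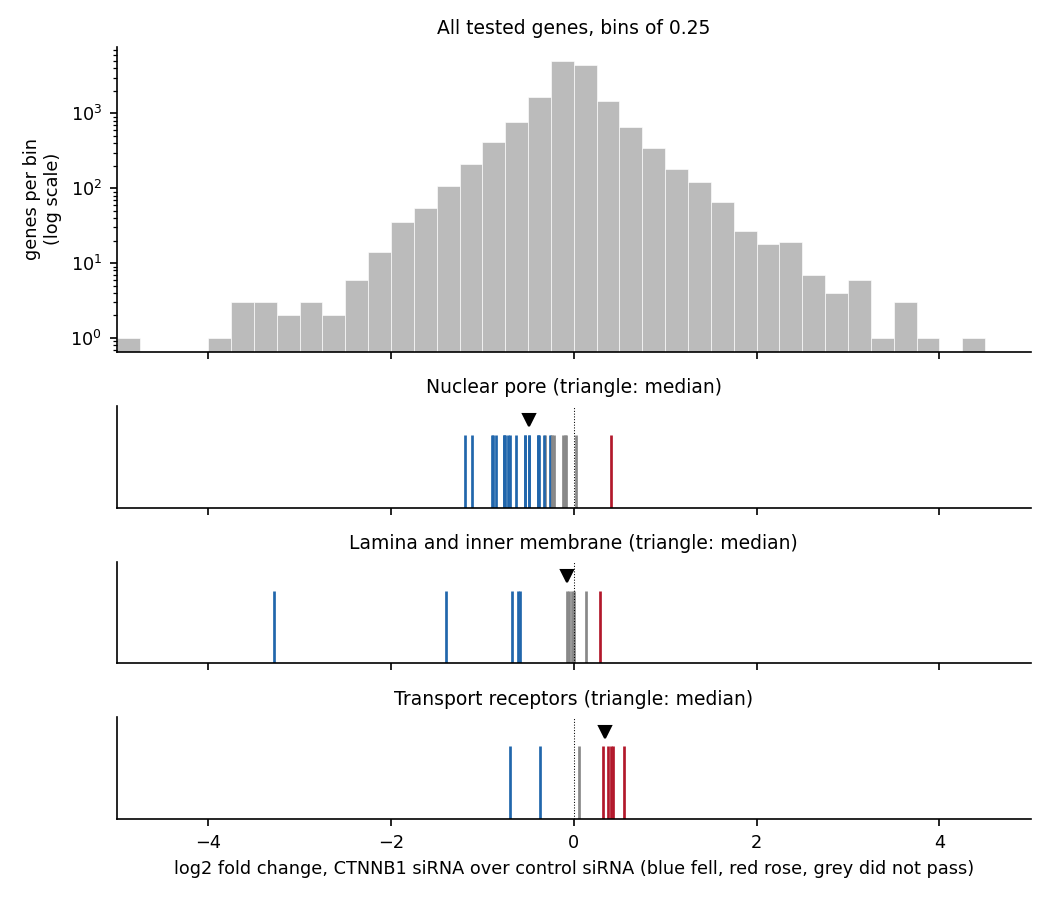
Number of tested genes per bin of 0.25 of the log2 fold change, CTNNB1 siRNA relative to control siRNA (top, log scale), and below it each pore, lamina and transport receptor gene as a vertical line on the same horizontal axis, with a triangle at the median of the class. The medians stand at -0.49 for the pore, -0.08 for the lamina and 0.35 for the transport receptors, beside -0.02 for all tested genes.

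The Y complex, also called the NUP107-NUP160 complex, is the outer scaffold of the pore and also sits at kinetochores in mitosis. Of its 9 genes 6 fell, SEC13 rose and 2 did not pass, where 16.1% of all tested genes fell and 14.2% rose. NUP107 was at 11.38 on both CTNNB1 siRNA arrays, against 12.65 and 12.48 log2 units on the control arrays. That is 2.27-fold lower on the deposited scale (log2 fold change -1.19, SE 0.09, adjusted p 0.00081 in limma). The second cluster of this gene, which did not enter the fit, lay at 6.07 on both CTNNB1 siRNA arrays, against 7.17 and 7.07, a difference of -1.05 in the same direction. NUP43, a small propeller-shaped subunit, had 11.47 and 11.36 with CTNNB1 siRNA, against 12.31 and 12.29 with control siRNA (log2 fold change -0.89, SE 0.08). SEH1L, which the pore shares with a regulator of amino acid signalling to mTORC1, had 11.76 and 11.92, against 12.70 and 12.68 (-0.85, SE 0.09).

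Further stem and arm subunits of the same complex followed at smaller sizes. NUP85 was at 8.41 and 8.31 with CTNNB1 siRNA, against 9.21 and 9.01 in controls, a log2 fold change of -0.75 (SE 0.10). NUP160 was at 9.79 and 9.90, against 10.59 and 10.53, a log2 fold change of -0.72 (SE 0.08). NUP133 fell by 0.54 (SE 0.10). In these 6 genes the arrays of the groups did not overlap, as in 34.2% of all tested genes in that direction. The same held for NUP37, which did not pass. NUP37 had a log2 fold change of -0.25 (95% interval -0.45 to -0.04) and an adjusted p of 0.074, and AHCTF1, which encodes the chromatin-binding protein ELYS that starts pore assembly after mitosis, had -0.12 (interval -0.35 to 0.11).

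SEC13 was the pore gene that went the other way, at 7.85 and 7.87 with CTNNB1 siRNA against 7.46 and 7.45 with control siRNA. It rose by 0.41 log2 units (SE 0.07, adjusted p 0.011 in limma). The groups did not overlap, as in 28.8% of all tested genes in that direction. Besides its place in the pore, the SEC13 protein is a coat subunit of the COPII vesicles that leave the endoplasmic reticulum.

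All 5 inner ring genes fell, where 16.1% of all tested genes did. The 5 log2 fold changes lay between -0.77 and -0.40, with adjusted p-values in limma from 0.0021 to 0.014. NUP205, a large solenoid scaffold protein, was at 9.51 and 9.64 on the CTNNB1 siRNA arrays, against 10.36 and 10.32 log2 units on the control arrays (log2 fold change -0.77, SE 0.08). NUP93, the linker that holds the inner ring to the central channel, was at 9.04 and 9.19, against 9.76 and 9.86 (-0.70, SE 0.09). NUP35, which touches the pore membrane, fell by 0.63 (SE 0.12), NUP155 by 0.53 (SE 0.08) and NUP188, the paralog of NUP205, by 0.40 (SE 0.07). Of the 2 central channel genes, NUP54 fell by 0.39 (SE 0.08), while NUP62 had a log2 fold change of -0.32 (interval -0.57 to -0.07) with an adjusted p of 0.061.

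On the cytoplasmic side, where mRNA leaves the pore, 5 of 7 genes fell and 2 did not pass, beside 16.1% of all tested genes that fell. NUP214, a repeat nucleoporin of the filaments, was at 9.07 and 9.08 with CTNNB1 siRNA, against 10.33 and 10.04 in controls, which is 2.16-fold lower (log2 fold change -1.11, SE 0.11, adjusted p 0.0017 in limma). Its binding partner NUP88 moved far less, with a log2 fold change of -0.27 (SE 0.08), and its adjusted p of 0.046 became 0.058 without a level filter, 0.061 after quantile normalization and 0.074 with a spread that followed the level. AAAS, which encodes ALADIN, the protein lost in triple A syndrome, was at 8.00 and 8.16 with CTNNB1 siRNA, against 8.77 and 8.92 (-0.77, SE 0.10). The mRNA export factor genes RAE1 and GLE1 fell by 0.50 (SE 0.10) and 0.40 (SE 0.09).

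The 2 that did not pass on that side were NUP98 and RANBP2. NUP98, whose transcript also encodes the Y complex subunit NUP96, had a log2 fold change of -0.24 (interval -0.47 to 0.00). RANBP2, the SUMO ligase of the cytoplasmic filaments, had 0.03 (interval -0.27 to 0.32), and its arrays overlapped between the groups. RANBP2 has near-identical relatives, the RGPD genes, which array probes may not tell apart.

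The 3 genes of the nuclear basket differed among themselves. NUP50, which helps release cargo from importin alpha, was at 9.89 and 9.94 with CTNNB1 siRNA, against 11.02 and 10.60 in controls, a fall of 0.90 log2 units (SE 0.15, adjusted p 0.0075 in limma). Without control replicate 1 its log2 fold change was -0.69. NUP153 had -0.22 (interval -0.46 to 0.03), and TPR, the long coiled-coil protein of the basket, had -0.09 (interval -0.54 to 0.36) with control arrays at 12.62 and 12.06 on either side of the CTNNB1 siRNA arrays. Of the transmembrane nucleoporins that anchor the pore, POM121 fell by 0.49 (SE 0.08) and NDC1 by 0.33 (SE 0.08), and NUP210 had -0.10 (interval -0.42 to 0.23). NDC1 had an adjusted p of 0.052 with a spread that followed the level. POM121 has a near-identical copy, POM121C, with a log2 fold change of -0.54 (SE 0.08), and signals of the pair may be mixed. Without POM121 and RANBP2, 19 of 27 pore genes fell and 1 rose, beside 16.1% and 14.2% of all tested genes.

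The lamina genes held the largest change of the 48. TMPO, on chromosome 12, encodes the lamina-associated polypeptides LAP2, which bind lamins and chromatin, and its single cluster does not separate the LAP2 isoforms. It stood at 10.13 and 10.45 log2 units on the CTNNB1 siRNA arrays, against 13.58 and 13.56 on the control arrays. The difference of -3.28 log2 units (SE 0.12, interval -3.58 to -2.98, adjusted p 0.00019 in limma) is 9.71-fold on the deposited scale and close in size to that of CTNNB1 itself. Whether the change in TMPO came through the loss of CTNNB1 RNA was not tested. The 2 CTNNB1 siRNA arrays differed from each other by more than the control arrays did, and both lay far below them.

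Lamins went apart by type. LMNB1, which encodes lamin B1, was at 9.78 and 9.97 with CTNNB1 siRNA, against 11.28 and 11.27 in controls, which is 2.64-fold lower (log2 fold change -1.40, SE 0.09, adjusted p 0.00062 in limma). LMNB2, the other B-type lamin gene, was at 8.66 and 8.82, against 9.29 and 9.41 (-0.61, SE 0.10). LMNA, whose transcripts encode the A-type lamins A and C, was at 7.86 and 7.91 with CTNNB1 siRNA, against 7.63 and 7.56, a rise of 0.29 (SE 0.08, adjusted p 0.040). The LMNA call is near the threshold, with an adjusted p of 0.051 in limma when genes at low levels were kept. LBR, the lamin B receptor of the inner membrane, which also works in cholesterol synthesis, was at 10.55 and 10.61, against 11.26 in both controls (-0.68, SE 0.08).

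**Figure D3:**
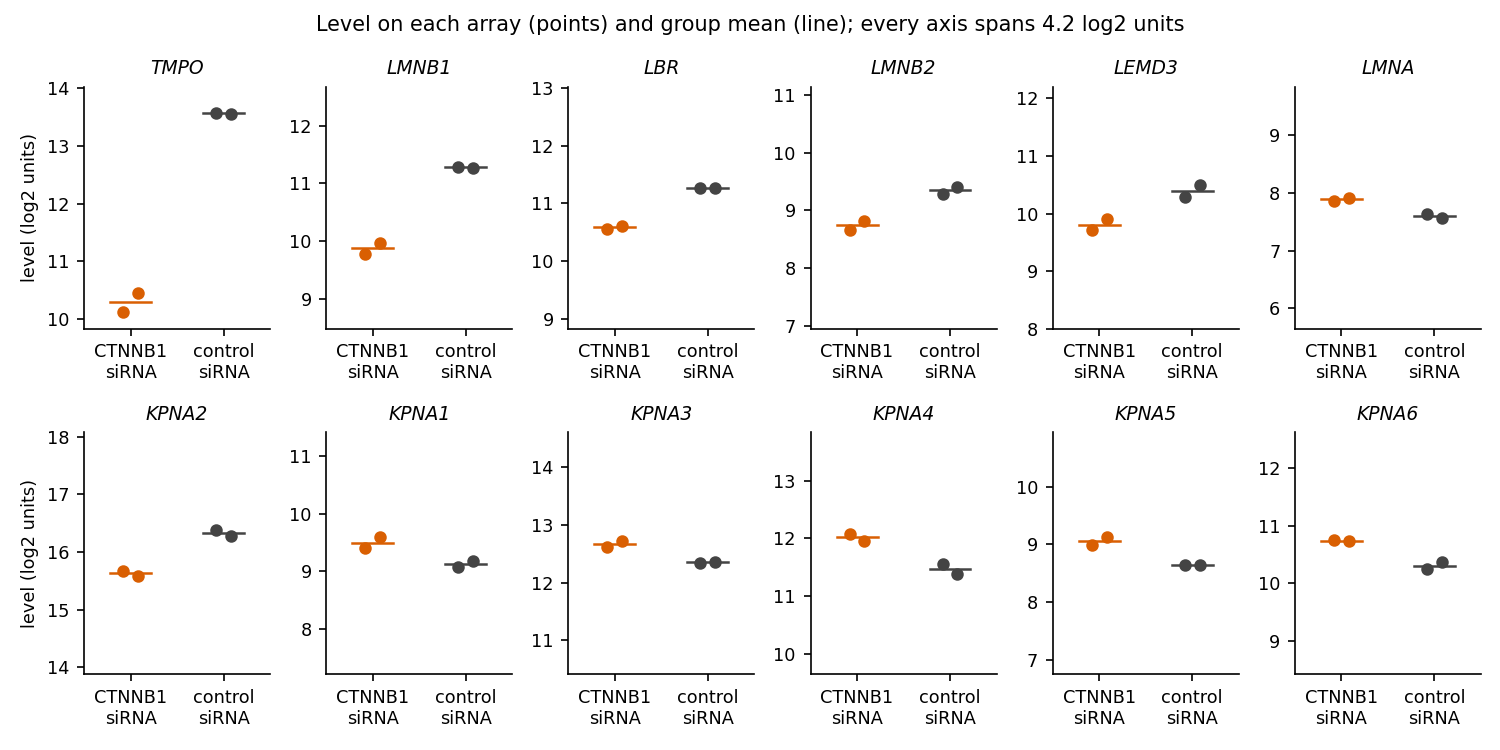
Level in log2 units on each array (points) and group mean (lines) for 6 lamina genes (top) and the 6 importin alpha genes (bottom), CTNNB1 siRNA at left and control siRNA at right; every vertical axis spans the same number of log2 units. In the 12 panels the groups do not overlap: TMPO, LMNB1, LBR, LMNB2, LEMD3 and KPNA2 are lower with CTNNB1 siRNA, and LMNA and the other 5 importin alpha genes are higher. Among all tested genes the groups did not overlap in 34.2% with CTNNB1 siRNA lower and in 28.8% with it higher.

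The remaining inner membrane and chromatin-bridging genes mostly did not pass. LEMD3, known as MAN1, binds SMAD proteins and lamins and shares the LEM domain with TMPO and emerin, and it was at 9.71 and 9.90 with CTNNB1 siRNA, against 10.29 and 10.50 (log2 fold change -0.59, SE 0.11). EMD, which encodes emerin, had a log2 fold change of 0.01 (interval -0.21 to 0.22) and LEMD2 had -0.02 (interval -0.24 to 0.20). BANF1, the DNA-binding partner of the LEM domain, had -0.08 (interval -0.28 to 0.13). SUN1 and SUN2, which link the lamina through nesprins to the cytoskeleton, had -0.06 (interval -0.25 to 0.14) and 0.13 (interval -0.06 to 0.32). None of these 5 intervals reached beyond 0.32 log2 units in either direction.

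The 250 bases before a RefSeq start of TMPO, LMNB1 and LMNA (GRCh38.p14) are shown. They belong to the lamina gene with the largest fall and to an A-type and a B-type lamin gene that moved apart. For each gene the first start listed was taken, and other starts, from which its main transcripts may arise, were not examined. Capitals mark the motif letters searched: CCAAT (NF-Y type), TTTGAA (the cell cycle element CHR), CTTTGAT (TCF/LEF type) and the E2F type, which is TTTCCCGC or TTTCGCGC or TTTGCCGC or TTTGGCGC, each on both strands.
TMPO, chr12:98515323-98515572, plus strand: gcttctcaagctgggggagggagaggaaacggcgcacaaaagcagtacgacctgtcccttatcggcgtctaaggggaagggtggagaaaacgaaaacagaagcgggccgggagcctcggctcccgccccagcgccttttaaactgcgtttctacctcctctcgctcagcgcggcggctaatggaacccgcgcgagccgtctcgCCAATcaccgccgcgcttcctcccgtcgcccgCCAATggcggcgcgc
LMNB1, chr5:126776373-126776622, plus strand: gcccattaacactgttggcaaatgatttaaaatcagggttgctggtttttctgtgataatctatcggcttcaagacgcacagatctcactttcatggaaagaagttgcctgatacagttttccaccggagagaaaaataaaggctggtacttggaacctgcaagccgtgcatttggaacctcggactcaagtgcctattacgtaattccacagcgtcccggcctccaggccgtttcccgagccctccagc
LMNA, chr1:156082323-156082572, plus strand: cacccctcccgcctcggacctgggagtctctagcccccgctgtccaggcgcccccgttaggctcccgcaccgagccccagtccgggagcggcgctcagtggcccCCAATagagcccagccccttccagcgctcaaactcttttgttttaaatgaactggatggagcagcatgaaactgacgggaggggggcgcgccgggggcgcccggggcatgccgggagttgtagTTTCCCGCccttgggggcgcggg
TMPO holds CCAAT at -47 and -15 from the start, LMNB1 holds none of the searched letters, and LMNA holds CCAAT at -146 and the E2F type at -23.

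Importin alpha proteins carry cargo with a classical nuclear localisation signal, bound to importin beta. The 6 genes fall into subfamilies, with KPNA2 beside the embryonic gene KPNA7, KPNA3 and KPNA4 in another, and KPNA1, KPNA5 and KPNA6 in the third. KPNA2 fell and the other 5 rose, where 16.1% of all tested genes fell and 14.2% rose. KPNA2, on chromosome 17 and known for high levels in proliferating cells, was at 15.68 and 15.58 log2 units on the CTNNB1 siRNA arrays, against 16.39 and 16.27 on the control arrays (log2 fold change -0.70, SE 0.09, adjusted p 0.0031 in limma). That is 1.63-fold lower on the deposited scale.

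The 5 rises were alike in size, between 0.32 and 0.55 log2 units. KPNA4 was at 12.07 and 11.96 with CTNNB1 siRNA, against 11.55 and 11.38 in controls, which is 1.46-fold higher (log2 fold change 0.55, SE 0.10, adjusted p 0.0092 in limma). Its subfamily partner KPNA3 was at 12.62 and 12.72, against 12.34 and 12.36 (0.32, SE 0.08). KPNA6 was at 10.75 and 10.73, against 10.25 and 10.37 (0.43, SE 0.08). In none of these 3 did the groups overlap, as was so upward for 28.8% of all tested genes.

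KPNA5 was at 8.98 and 9.12 with CTNNB1 siRNA, against 8.64 on both control arrays (0.41, SE 0.09), and KPNA1 at 9.40 and 9.60, against 9.08 and 9.18 (0.37, SE 0.10). The calls for KPNA1 and KPNA3 lay near the threshold, with adjusted p-values in limma of 0.039 and 0.031. They became 0.053 for KPNA1 without a level filter and 0.051 for KPNA3 with a spread that followed the level. KPNB1, the importin beta gene that all 6 importin alpha proteins pair with, had a log2 fold change of 0.06 (interval -0.22 to 0.33), with overlapping arrays. XPO1, which encodes the main exportin for leucine-rich export signals, was at 11.63 and 11.70 with CTNNB1 siRNA, against 12.13 and 11.94 (-0.37, SE 0.10, adjusted p 0.034).

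The promoter stretches of KPNA2, which fell, and KPNA6, which rose, are shown because both hold the CCAAT letters, whereas KPNA1 and KPNA3, which also rose and have promoters in the table, hold none of them. The stretches and capitals are as for the lamina genes.
KPNA2, chr17:68035485-68035734, plus strand: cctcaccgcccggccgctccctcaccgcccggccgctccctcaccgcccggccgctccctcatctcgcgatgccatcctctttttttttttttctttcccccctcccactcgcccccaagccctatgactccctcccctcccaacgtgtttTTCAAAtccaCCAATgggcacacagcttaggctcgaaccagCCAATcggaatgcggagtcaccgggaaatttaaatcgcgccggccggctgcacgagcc
KPNA6, chr1:32107806-32108055, plus strand: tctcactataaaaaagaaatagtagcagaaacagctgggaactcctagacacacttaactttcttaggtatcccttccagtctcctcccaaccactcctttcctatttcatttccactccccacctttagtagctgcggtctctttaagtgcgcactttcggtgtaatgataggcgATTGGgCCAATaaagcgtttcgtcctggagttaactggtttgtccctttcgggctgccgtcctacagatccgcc
KPNA2 holds the CHR letters at -99 and CCAAT at -89 and -58. Past the stretch shown, it holds the CHR letters again at base 33 after the start. KPNA6 holds CCAAT on the opposite strand at -74 and on its own strand at -68, with 1 base between them.

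Promoters of 41 of the 48 genes were found in the RefSeq table, as windows of 250 bases before to 50 after the start. Each member counts with the first start listed for it, while the shares of all and of tested genes count every listed start. The NF-Y-type letters stood in 18 of the 41, or 43.9%, against 34.6% both of all 35116 promoters and of the 15854 promoters of tested genes. Their share was 44.0% among the 25 genes that fell, 40.0% among the 5 that rose and 45.5% among the 11 that did not pass. The CHR-type letters stood in 22.0% of the members' promoters, against 15.2% of all and 11.0% of those of tested genes, with 20.0% of those that fell, 0 of the 5 that rose and 36.4% of those that did not pass. The E2F type stood in 3 members (7.3%, against 3.3% of all and 4.6% of those of tested genes), namely NUP155 and LEMD3, which fell, and LMNA, which rose. The TCF/LEF letters, a core of the site through which beta-catenin acts on its targets, stood in 1 member, LBR, at -202 (2.4%, against 2.6% of all and 1.6% of those of tested genes). These matches are descriptions of letters, and binding was not measured.

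Genes of the same pathway outside the 48, taken from lists put together with earlier results known, moved in both directions. Of 53 tested, 19 fell (35.8%), 10 rose (18.9%) and 24 did not pass, at a median log2 fold change of -0.16. Among all tested genes 16.1% fell and 14.2% rose. A further 6 of the 59 listed were not tested or not analysed here. The exporter that returns importin alpha to the cytoplasm, CSE1L, was at 13.70 and 13.73 with CTNNB1 siRNA, against 14.95 and 14.79 in controls (-1.16, SE 0.09, adjusted p 0.00083 in limma). Of the other importins and exportins, TNPO2 fell by 1.04 (SE 0.09) and IPO8, the importin of Argonaute proteins among others, rose by 1.15 (SE 0.14). Its close paralog IPO7 rose by 0.31 (SE 0.08), and TNPO1, the paralog of TNPO2, rose by 0.47 (SE 0.12); both were chosen after their values were seen. KPNA7, in the subfamily of KPNA2, lay at the level filter, with 4.47 and 4.43 log2 units with CTNNB1 siRNA against 4.18 and 4.10. Both of its control arrays lay below the filter, which it passed through the CTNNB1 siRNA arrays. In that list of 16 tested genes 6 rose, KPNA7 among them, 5 fell and 5 did not pass. Of 4 tested Ran cycle genes, RANBP1 fell by 0.38 (SE 0.08) and 3 did not pass, among them RAN itself at -0.08 (interval -0.32 to 0.16).

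Of 13 tested mRNA export factors 6 fell (46.2%), 1 rose (7.7%) and 6 did not pass, beside 16.1% and 14.2% of all tested genes. ENY2, a subunit shared by the TREX-2 export complex and the SAGA coactivator, was at 6.77 and 7.10 with CTNNB1 siRNA, against 8.76 and 8.48 (-1.69, SE 0.15). The adaptor gene ALYREF fell by 1.62 (SE 0.10) and THOC7, of the THO complex, by 0.83 (SE 0.10). Of 4 further nucleoporins, POM121C fell, as given above, and NUP58, a partner of NUP54 and NUP62 in the central channel, rose by 0.32 (SE 0.09).

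Of 16 further nuclear envelope genes 6 fell (37.5%), 2 rose (12.5%) and 8 did not pass. Among all tested genes 16.1% fell and 14.2% rose, so the share of rises was near that of all genes. NEMP1, an inner membrane protein gene, was at 8.17 and 8.40 with CTNNB1 siRNA, against 10.11 and 10.24 (-1.89, SE 0.11, adjusted p 0.00043 in limma). SYNE2, which encodes nesprin-2, a partner of SUN proteins, fell by 1.85 (SE 0.13), and ZMPSTE24, the protease that matures prelamin A, fell by 1.31 (SE 0.13). SYNE1, which encodes nesprin-1 and was chosen after its value was seen, rose by 0.87 (SE 0.10).

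**Figure D4:**
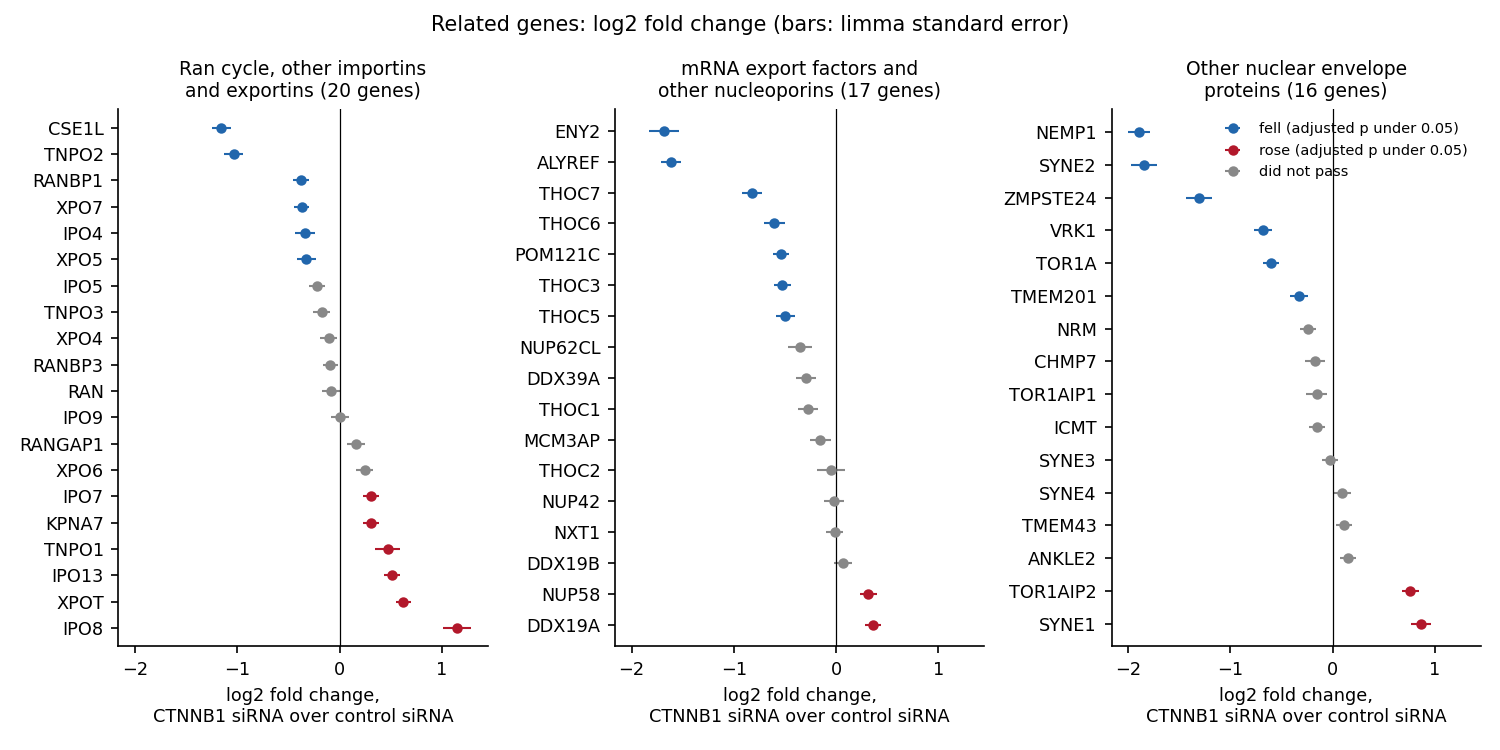
Log2 fold change, CTNNB1 siRNA relative to control siRNA, for the 53 tested related genes, with limma's standard error as bars, in 3 panels by function; blue fell, red rose and grey did not pass. NEMP1, SYNE2, ENY2 and ALYREF lie furthest to the left and IPO8 furthest to the right.

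Proliferation markers moved with the falls above. All 10 of MKI67, PCNA, TOP2A, CCNB1, CCNA2, CDK1, BUB1, AURKA, PLK1 and MCM2 fell, where 16.1% of all tested genes did. These markers had log2 fold changes between -1.69 and -0.58, with a median of -0.98. Their part in the changes of the pore, lamina and importin genes was not tested. In bulk RNA, fewer cells at a stage of the cycle and less RNA per cell cannot be told apart.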

How the data were processed

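The deposited log2 expression values were made by the authors with Affymetrix Expression Console and RMA, which corrects background, normalizes between arrays and summarises the probes of a transcript cluster, per the submitters' processing notes. Versions, the RMA variant and the build were not given in the sources used here. Array medians lay between 4.58 and 4.66 and values reached 19.93, higher than log2 intensities from scanners usually run, so folds hold on the deposited scale only. Detection calls and scanner files were not used here.

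Clusters were named from the platform's annotation and updated through RefSeq (GRCh38.p14); 23781 of 67528 clusters had 1 symbol, and the cluster with the highest mean stood for a gene. The fit used limma 3.58.1 in R 4.3.3 on 4 arrays, with 2 groups, no block and Benjamini-Hochberg adjustment over 15679 genes. Intervals are 95% intervals and n is 2 per group throughout. P-values rest on the spread pooled across genes together with each gene's own spread between these samples, which may be technical. The number of arrays limits the precision. Alternatives were other level filters, quantile normalization, a variance trend, the mean of a gene's clusters, a replicate block and each array left out. Tested on simulated data of 15679 genes, the fit recovered 88.1% of 67 genes changed 1.5-fold and all of those changed 2-fold or 4-fold, while 9.0% of the genes it called had not been changed. The other genes were left unchanged there and the noise was independent between genes. In the real data 2531 genes fell and 2225 rose, so these shares need not hold for them.

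The members and lists were chosen with earlier results of these data known. Values on every array were given for the called genes with the largest changes, 10 of the pore, 6 of the lamina and 5 of the transport receptors, for called genes opposed to their class median and for the remaining importin alpha genes, and the 3 largest called changes of each related list were named. Protein sequence features were not analysed here. Plots were made in Python 3.11.15 with matplotlib 3.10.9.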

Additional observations from a re-analysis of the deposited data

How the results depend on the processing

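With any 1 array left out, 0 pore, 0 lamina, 0 transport receptor and 0 related genes were called in either direction by limma, with 1 residual degree of freedom. The log2 fold change of CTNNB1 was then -3.63 to -3.48 (adjusted p 0.055 to 0.076 in limma). The pore median lay between -0.50 and -0.40, the end nearest 0 without CTNNB1 siRNA replicate 1. The labels do not say that replicate numbers mark a shared culture, and deviations of same-numbered samples correlated at 0.27 across genes. With the replicate number as a replicate block, 15 pore genes fell and 1 rose, 5 lamina genes fell and 0 rose, and 1 transport receptor gene fell and 4 rose, with 15 related genes lower and 8 higher. The members no longer called with the block were NUP50, RAE1, GLE1, NDC1, NUP88, LMNA, KPNA3 and XPO1, at adjusted p-values in limma from 0.050 to 0.093. Without a level filter 0 lamina genes rose. Across the other settings with all arrays, between 18 and 20 pore genes fell. Of the 48 members, 45 kept their call without a level filter, 45 with a variance trend, 46 after quantile normalization, which added NUP62 (adjusted p 0.049 in limma), and 40 with the block. None changed direction past the threshold. The number of arrays limits every call, and without detection calls a low level is no measure of absence.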
